A study of Mus musculus with 6 samples.

Results

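The genes described here encode the subunits of heterotrimeric G proteins and the regulators of G protein signalling (RGS). They were chosen by symbol from the table of 52513 genes: the alpha subunits of the Gi/o/z, Gs/olf, Gq/11 and G12/13 classes and of transducin and gustducin, the beta subunits, the gamma subunits, and the numbered Rgs genes other than Rgs5. The rule found 53 genes, made up of 16 alpha, 5 beta and 12 gamma subunits and 20 Rgs genes. The tissue was the L4 to L5 spinal cord of WT (wild-type) mice. Total RNA was sequenced in 3 libraries from mice given morphine intrathecally for 7 days, 10 µg in 10 µL, and in 3 libraries from mice given saline by the same route. The samples of each group are described by the numbers 1-2-3, 4-5-6 and 7-8, which could stand for pooled animals. The sources used here do not say whether they do, so n counts libraries, and an SD may be that of pools. Strain, age and sex are not given either. Nothing in the labels says that the libraries came from separate cages or dissections, so the p-values measure the spread between these libraries, which may in part be technical. The series title concerns morphine tolerance, and the comparison asks how the transcripts of this signalling machinery differed between morphine and saline cords.

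A heterotrimeric G protein couples a receptor to its effectors. The receptor loads the alpha subunit with GTP, alpha parts from the beta-gamma dimer, and both act on enzymes and channels until alpha hydrolyses its GTP. RGS proteins speed that hydrolysis and so shorten the signal. The mu opioid receptor, the main target of morphine, couples to the Gi/o/z class, which lowers cyclic AMP and, through beta-gamma, opens inwardly rectifying potassium channels and restrains calcium channels in dorsal horn neurons.

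Values are FPKM, which divide a gene's fragments by its transcript length and by the size of the library, so levels of different genes can be set side by side. Summed over all genes, FPKM came to 720234 to 741145 in the morphine libraries and 662470 to 670280 in the saline libraries. That offset remains in the FPKM values and sums given here. The depth, estimated from the steps of low FPKM values, was 17.9 to 19.8 M fragments in the morphine libraries and 21.2 to 26.1 M in the saline libraries. The pan-neuronal markers fixed for the tissue summed to 2541 to 2787 FPKM in morphine and 2511 to 2701 FPKM in saline. The 9 motor neuron markers were uneven within each group and summed to 99.9, 247 and 41.1 FPKM in morphine 1, 2 and 3, against 237, 253 and 51.6 FPKM in saline 1, 2 and 3. The median log2 fold change of the 8 motor neuron markers tested was -0.60, with 0 at an unadjusted limma p under 0.05. Astrocyte markers, in the same library order, summed to 814, 1117 and 833 FPKM in morphine and 1038, 1015 and 802 FPKM in saline. Their median log2 fold change was -0.11. At an unadjusted limma p under 0.05 there were 2 of 6, Aqp4 and Slc1a2, both lower in morphine. Oligodendrocyte markers summed to 17876, 22327 and 16464 FPKM in morphine and 19953, 20970 and 14330 FPKM in saline. Sums of red cell markers did not overlap, at 421 to 595 FPKM in morphine and 757 to 1077 FPKM in saline, and 4 of the 5 had an unadjusted p under 0.05. Among them Hbb-bt, lower in morphine, also passed after adjustment (limma adjusted p = 0.0453). Ependymal markers summed to 17.3 to 24.1 FPKM in morphine and 15.8 to 20.5 FPKM in saline (median log2 fold change 0.03). Of the 3 tested, Ccdc153 passed, at a mean of 1.48 FPKM in morphine and 0.24 FPKM in saline (limma adjusted p = 0.0488). Endothelial markers summed to 89.3 to 109 FPKM in morphine and 97.8 to 111 FPKM in saline, with a median log2 fold change of -0.35 and 4 of 6 at an unadjusted p under 0.05. Pericyte and smooth muscle markers summed to 10.2 to 16.5 FPKM in morphine and 13.6 to 19.1 FPKM in saline (median -0.26, 3 of 4 tested). Of these 3, Kcnj8 and Acta2 were lower in morphine and Cspg4 was higher. Meningeal fibroblast markers summed to 23.7 to 84.6 FPKM in morphine and 72.0 to 102 FPKM in saline (median -0.63, 0 of 6). The part of these markers in the results was not tested. Sums of the 6 microglial markers were 111 to 136 FPKM in morphine and 119 to 131 FPKM in saline. In bulk tissue, fewer cells of a type and less RNA per cell cannot be told apart.

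Of the 53 genes, 42 reached the level set for testing, which was 1 FPKM or more in 3 or more libraries. Rgs11, an RGS gene of the R7 subfamily, rose 1.45-fold in morphine cords and was the 1 member that passed the test (limma on log2(FPKM + 1), Benjamini-Hochberg adjusted p under 0.05 over all 14614 tested genes). Thus 2.38% of the tested members were called, beside 1.51% of all tested genes (138 higher and 82 lower, or 0.944% and 0.561%). At an unadjusted p under 0.05 there were 8 members (6 higher, 2 lower), or 19.0%, beside 22.3% of all tested genes. The values of the groups did not overlap in 7 members, or 16.7%, beside 28.7% of all tested genes. These shares were close to or below the background. The median log2 fold change, morphine over saline, was 0.02 over the members and -0.02 over all tested genes. All log2 fold changes given here are on the log2(FPKM + 1) scale and understate the change of genes near 1 FPKM.

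**Figure D1:**
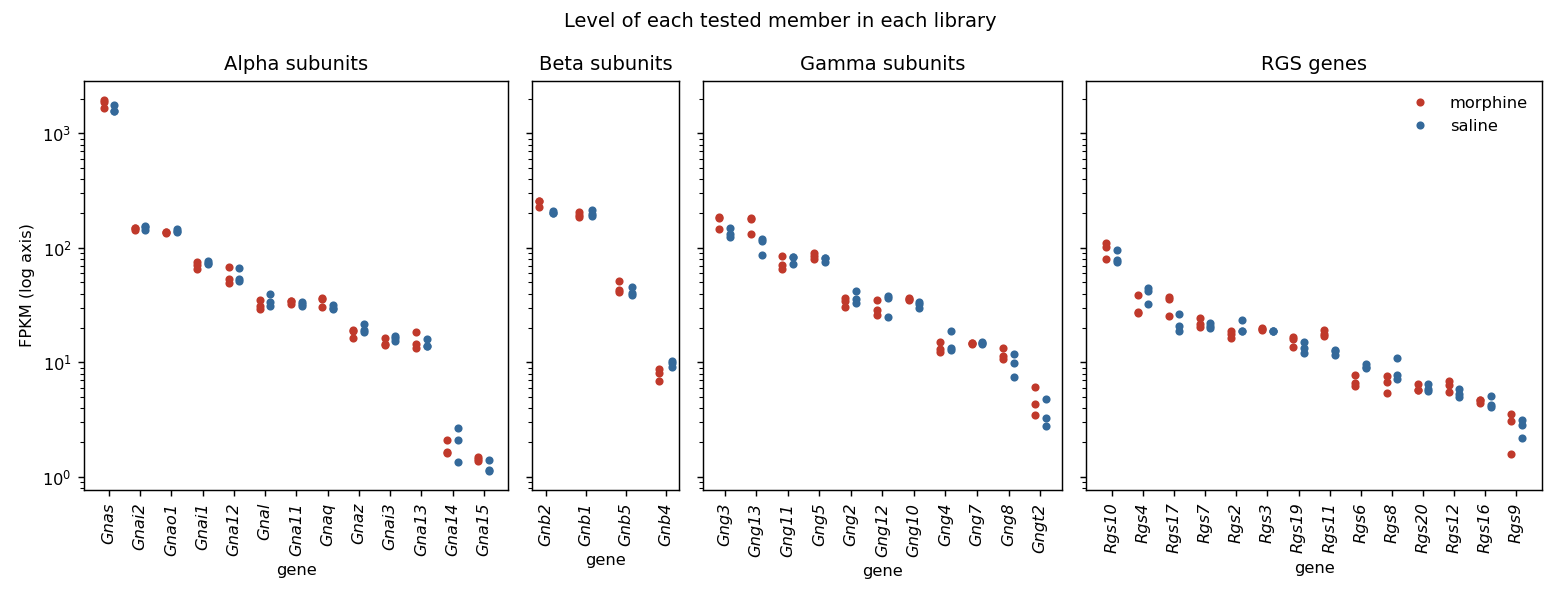
FPKM (log axis) of each of the 42 tested members in the 3 morphine (red) and 3 saline (blue) libraries, ordered within each class by the saline mean. Gnas stands apart at the top of the alpha subunits, while Gna14 and Gna15 lie near 1 to 3 FPKM.

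Among the alpha subunits, which bind the nucleotide and choose the effector, 0 of 13 tested genes passed limma's test and 0 had an unadjusted p under 0.05. Their fold changes ran from -0.13 (Gnal) to 0.18 (Gnaq) on the log2 scale. Gnas, the gene of the stimulatory alpha subunit on chromosome 2, was the most abundant member. It lay at 1974, 1659 and 1895 FPKM in morphine 1, 2 and 3 and at 1569, 1586 and 1756 FPKM in saline 1, 2 and 3. The ranges overlapped, since morphine 2 lay below saline 3. The log2 fold change was 0.17 (SE 0.08, adjusted p = 0.271) and turned to -0.02 after quantile normalization. Gnas made up 76.5% ± 1.99 of the summed alpha FPKM in morphine and 74.0% ± 1.05 in saline (SD, n = 3 each). The annotation gives it 24 transcripts. The FPKM is that of the whole gene, so this share cannot be read as that of the stimulatory alpha transcript alone. The exons of Gnas share 1469 nt with Gm20721 on the opposite strand. Gm20721 averaged 56.9 ± 7.59 FPKM in morphine and 41.7 ± 1.33 FPKM in saline (SD, n = 3 each, limma adjusted p = 0.0670).

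The inhibitory Gi/o/z class, through which opioid receptors act, differed little in the main fit. Gnao1, the Go subunit that is enriched in neurons, lay at 138, 134 and 139 FPKM in morphine and at 138, 140 and 148 FPKM in saline. Gnai2, a Gi subunit found in most cell types, lay at 143, 149 and 150 FPKM in morphine and at 152, 154 and 143 FPKM in saline. For both genes the ranges overlapped, and the log2 fold changes of -0.05 (95% interval -0.17 to 0.07) and -0.02 (95% interval -0.15 to 0.10) had intervals that included 0. The other Gi genes averaged 70.5 ± 4.56 FPKM in morphine and 74.1 ± 2.32 FPKM in saline (Gnai1) and 15.03 ± 1.11 FPKM in morphine and 16.2 ± 0.723 FPKM in saline (Gnai3; SD, n = 3 each). Gnaz, whose protein hydrolyses GTP slowly and resists pertussis toxin, averaged 18.1 ± 1.56 FPKM in morphine and 19.7 ± 1.68 FPKM in saline (SD, n = 3 each). All 5 tested genes of the class had slightly negative log2 fold changes, from -0.11 to -0.02, and 0 passed. With the trend of fold change on transcript length removed, Gnao1 was at 0.03. Rescaled to TPM, which gives every library the same total, all 5 were lower (median -0.20, beside -0.13 over all tested genes). Summed, the Gi and Go genes Gnai1, Gnai2, Gnai3 and Gnao1 came to 370 ± 7.05 FPKM in morphine and 382 ± 3.65 FPKM in saline. By library the sums were 362, 374 and 374 FPKM in morphine and 378, 385 and 383 FPKM in saline. These groups did not overlap, which was found for 28.7% of all tested single genes. Gnao1 held 37.0% ± 1.18 of that sum in morphine and 37.2% ± 1.21 in saline.

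Gnal, the olfactory type stimulatory subunit, lay at 31.0, 29.0 and 35.0 FPKM in morphine and at 33.6, 31.4 and 39.3 FPKM in saline (adjusted p = 0.505). Within each group library 3 held its highest value. Gnaq and Gna11, which activate phospholipase C beta, were at similar levels. Gnaq lay at 36.8, 30.4 and 35.95 FPKM in morphine and at 29.9, 29.0 and 31.7 FPKM in saline (adjusted p = 0.281). Gna11 lay at 34.2, 32.3 and 34.7 FPKM in morphine and at 31.4, 32.3 and 33.8 FPKM in saline (log2 fold change 0.05, adjusted p = 0.648). Morphine 2 held the lowest morphine value of both genes, inside the saline range. Gna12 and Gna13, the G12/13 class, varied more within the groups than between their means: Gna12 lay at 49.7, 68.7 and 53.9 FPKM in morphine and at 51.2, 66.3 and 53.8 FPKM in saline, and Gna13 lay at 13.3, 18.3 and 14.4 FPKM in morphine and at 13.8, 16.0 and 13.97 FPKM in saline. Morphine 2 and saline 2 were the highest of their groups for both genes. The signs of Gna11, Gna12 and Gna13 turned with the values rescaled to TPM, a scale on which every library has the same total. Gna14 and Gna15, relatives of Gnaq with narrow expression, averaged 1.79 and 1.44 FPKM in morphine and 2.04 and 1.23 FPKM in saline.

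In saline the alpha subunits ranked Gnas, Gnai2, Gnao1, Gnai1, Gna12, Gnal, Gna11, Gnaq, Gnaz, Gnai3, Gna13, Gna14 and Gna15 by mean level. Neighbours whose saline ranges overlapped were Gnai2 with Gnao1, Gnal with Gna11, Gna11 with Gnaq, Gnai3 with Gna13, and Gna14 with Gna15. The sensory alpha subunits were under the test's level. Gnat1, rod transducin, reached at most 0.80 FPKM, Gnat2, cone transducin, was above 0 in saline 1 alone at 0.16 FPKM, about 8 fragments, and Gnat3, gustducin, was listed at 0 in every library.

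Of the 4 tested beta subunits, which form the obligate dimer with gamma, 0 passed the test. An unadjusted p under 0.05 was found for 2, beside 22.3% of all tested genes. The groups of the same 2 did not overlap, beside 28.7% of all tested genes. Gnb2 (ENSMUSG00000029713; chromosome 5, 137528127 to 137533510, minus strand), a widely expressed beta subunit, lay at 260, 230 and 255 FPKM in morphine and at 202, 210 and 204 FPKM in saline. Every morphine value was above every saline value, with a mean 1.21-fold higher. The log2 fold change was 0.27 (SE 0.06, adjusted p = 0.0672). It was 0.14 with the values rescaled to TPM (adjusted p = 0.159), which moves the median of all genes from -0.02 to -0.13, and to 0.14 after quantile normalization (adjusted p = 0.177). Without morphine 2 it was 0.32 (adjusted p = 0.0350). With each other library left out Gnb2 did not pass (limma adjusted p up to 0.208). Without morphine 2, 805 of all tested genes passed, beside 220 with all 6 libraries. Gnb4, a less abundant beta subunit on chromosome 3, ran the other way, at 6.95, 8.70 and 8.13 FPKM in morphine and at 10.3, 9.98 and 9.10 FPKM in saline. Its groups did not overlap either, but the gap between morphine 2 and saline 3 was small, and the adjusted p was 0.157 (log2 fold change -0.28, SE 0.10).

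Gnb1, the beta subunit closest to Gnb2 in level, lay at 194, 186 and 207 FPKM in morphine and at 196, 192 and 213 FPKM in saline. The ranges overlapped (log2 fold change -0.03, adjusted p = 0.794). In saline, Gnb2 and Gnb1 were at overlapping levels, while in morphine the 3 Gnb2 values all lay above the 3 Gnb1 values. Gnb2 took 51.5%, 49.3% and 49.0% of the summed beta FPKM in morphine 1, 2 and 3 and 45.1%, 46.5% and 43.2% in saline 1, 2 and 3. Gnb5, the divergent beta subunit that pairs with R7 RGS proteins in place of a gamma subunit, averaged 45.1 ± 5.47 FPKM in morphine and 41.6 ± 3.61 FPKM in saline (SD, n = 3 each). Gnb3, which carries phototransduction in cones, was at 0.19 FPKM or less.

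**Figure D2:**
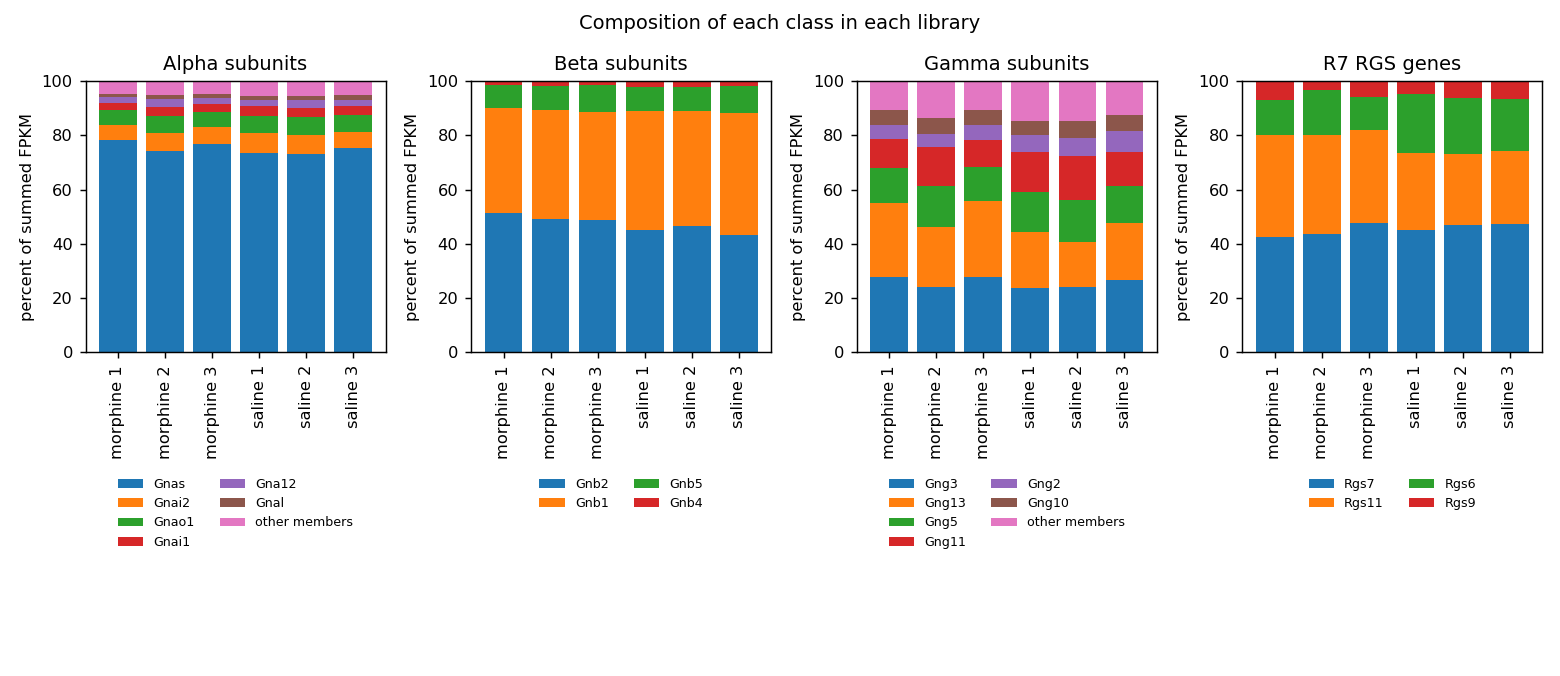
Percent of the summed FPKM of each class taken by each gene, per library, for alpha, beta and gamma subunits and the R7 RGS genes. Gnb2 takes 49.0% to 51.5% of beta in morphine against 43.2% to 46.5% in saline, and Rgs11 takes 34.2% to 37.5% of the R7 sum in morphine against 26.2% to 28.6% in saline.

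The gamma subunits anchor the dimer to the membrane by a lipid tail. Of 11 tested, 0 passed and 3 had an unadjusted p under 0.05, all higher in morphine, beside 22.3% of all tested genes (11.2% higher). Gng13, a gamma subunit best known from taste, olfactory and retinal bipolar cells, had the largest log2 fold change among all 42 tested members, 0.63 (SE 0.16, adjusted p = 0.0843). The gene (ENSMUSG00000025739; chromosome 17, 25717171 to 25719406, plus strand) lay at 180, 133 and 184 FPKM in morphine and at 114, 86.7 and 120 FPKM in saline. The groups did not overlap, and morphine 2 and saline 2 were the lowest of their groups. Without morphine 2 the adjusted p was 0.0390 (log2 fold change 0.78). With each other library left out Gng13 did not pass (limma adjusted p up to 0.238). With the trend of fold change on transcript length removed, the log2 fold change was 0.47 (adjusted p = 0.159). Gng13 is the shortest of the tested members at 773 nt of exonic sequence, of which 399 nt lie opposite exons of Chtf18, a gene that averaged 0.640 FPKM in morphine and 0.827 FPKM in saline.

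Gng3, a gamma subunit of neurons and the most abundant of the class, lay at 185, 146 and 184 FPKM in morphine and at 132, 126 and 150 FPKM in saline. Morphine 2 lay below saline 3, so the ranges overlapped (log2 fold change 0.33, SE 0.11, adjusted p = 0.148). Without morphine 2 the log2 fold change was 0.44 (adjusted p = 0.0418), and with each other library left out Gng3 did not pass (limma adjusted p up to 0.358). Its exons share 398 nt with Bscl2 on the opposite strand, which averaged 59.1 ± 2.76 FPKM in morphine and 53.4 ± 2.43 FPKM in saline (SD, n = 3 each). Gng10 lay at 35.6, 35.0 and 36.5 FPKM in morphine and at 30.0, 32.2 and 33.6 FPKM in saline. Its groups did not overlap, by a small margin (log2 fold change 0.16, adjusted p = 0.204), and 946 nt of its exons are shared with the transcript Gm20503 on the same strand, which was listed at 0. The division of fragments between overlapping genes, and any use of strand, are not stated in the sources at hand.

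Gng4, a neuronal gamma subunit with the lowest fold change of the class, lay at 13.1, 12.3 and 14.98 FPKM in morphine and at 13.4, 12.9 and 18.8 FPKM in saline. The log2 fold change was -0.14 (adjusted p = 0.624), and without saline 3 it was 0.03 (adjusted p = 0.903). Gng2 and Gng7, which are abundant in brain neurons, averaged 34.0 ± 3.13 and 14.6 ± 0.0400 FPKM in morphine and 37.1 ± 4.79 and 14.9 ± 0.280 FPKM in saline. Gng7 stayed between 14.6 and 15.2 FPKM in all 6 libraries. Gng5 and Gng11, which are found outside neurons too, averaged 85.4 ± 5.26 and 73.9 ± 9.77 FPKM in morphine and 79.3 ± 3.88 and 79.6 ± 6.65 FPKM in saline. Gng12 lay at 28.5, 35.2 and 26.2 FPKM in morphine and at 38.0, 36.7 and 24.98 FPKM in saline. Its high values stood in saline 1, saline 2 and morphine 2. The same 3 libraries held the highest sums of motor neuron, astrocyte, oligodendrocyte and endothelial markers, among others. The part of these markers in it was not tested. Gng8 averaged 11.8 FPKM in morphine and 9.73 FPKM in saline, and Gngt2 averaged 4.65 FPKM in morphine and 3.63 FPKM in saline. Gngt1, the rod gamma subunit, was listed at 0 in every library. Summed, gamma transcripts came to 641 ± 34.1 FPKM in morphine and 547 ± 21.9 FPKM in saline (SD, n = 3 each) and beta transcripts to 497 ± 28.4 FPKM in morphine and 457 ± 12.9 FPKM in saline. Rescaled to TPM, the log2 ratio of the sums was 0.10 for gamma and -0.01 for beta.

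The RGS genes carried the one call. Rgs11 belongs with Rgs6, Rgs7 and Rgs9 to the R7 subfamily, whose proteins act on Gi/o alpha subunits and are stable in complex with Gnb5. Rgs11 (ENSMUSG00000024186) lies on chromosome 17 of mm10, from 26202951 to 26211324 on the plus strand. It lay at 19.0, 17.1 and 17.6 FPKM in morphine 1, 2 and 3 and at 12.9, 11.6 and 12.6 FPKM in saline 1, 2 and 3. All 3 morphine values stood clear of all 3 saline values, and the gap between the groups exceeded the range within either. The means were 17.9 ± 0.983 FPKM in morphine and 12.3 ± 0.660 FPKM in saline (SD, n = 3 each), and limma gave a log2 fold change of 0.51 (SE 0.07) with an adjusted p of 0.0456. By the exact two-sided permutation test p was 0.1, the lowest value possible with groups of this size. The values correspond to about 937, 760 and 813 fragments in morphine and 685, 751 and 663 in saline, so counting error is small beside the difference. The direction held in all 17 other settings tried (0.39 to 0.54), but the call is marginal: it was lost without saline 1 (adjusted p = 0.146), saline 2 (0.149), saline 3 (0.105), morphine 1 (0.152) or morphine 3 (0.136), and stood without morphine 2 (0.0327). It was also lost with no filter (0.0992), with no intensity trend (0.0611) and with the trend of fold change on transcript length removed (0.0520), and it passed in 8 of the 17 settings in all. Rgs11 shares 138 nt of exonic sequence with Arhgdig on the opposite strand, which lay at 81.9, 76.1 and 86.4 FPKM in morphine and at 65.2, 62.1 and 72.3 FPKM in saline (adjusted p = 0.0912). The part of that neighbour in the Rgs11 value was not tested.

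Rgs6 (ENSMUSG00000021219; chromosome 12, 82588292 to 83162056, plus strand), another R7 gene, had the lowest log2 fold change of all tested members. It lay at 6.58, 7.83 and 6.23 FPKM in morphine and at 9.68, 9.12 and 8.93 FPKM in saline. The groups did not overlap, with a mean 1.34-fold lower in morphine, yet the gene did not pass (log2 fold change -0.38, SE 0.09, adjusted p = 0.0779). It stood at -0.51 with the values rescaled to TPM (adjusted p = 0.0427), which moves the median of all genes from -0.02 to -0.13. Without morphine 2 it was at -0.47 (adjusted p = 0.0374), and with each other library left out it did not pass (limma adjusted p up to 0.229). With the length trend removed it was at -0.30 (adjusted p = 0.185). Its exonic length is 10023 nt, against 4206 nt for Rgs11. Rgs7, the most abundant R7 gene in this tissue, lay at 21.5, 20.6 and 24.5 FPKM in morphine and at 20.2, 20.8 and 22.0 FPKM in saline, and the ranges overlapped (log2 fold change 0.08, 95% interval -0.12 to 0.27). Rgs9, whose striatal form limits opioid signalling in mice, lay at 3.53, 1.60 and 3.11 FPKM in morphine and at 2.17, 2.84 and 3.12 FPKM in saline, so the spread within morphine was wider than the whole saline range.

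The R7 genes summed to 50.7, 47.1 and 51.5 FPKM in morphine and to 44.9, 44.3 and 46.6 FPKM in saline. Rgs11 took 37.5%, 36.3% and 34.2% of that sum in morphine and 28.6%, 26.2% and 26.9% in saline. Rgs6 took 12.99%, 16.6% and 12.1% in morphine and 21.6%, 20.6% and 19.2% in saline. For both shares the groups did not overlap, while Rgs7 held 44.6% ± 2.70 in morphine and 46.3% ± 1.23 in saline. The FPKM of Rgs11 and Rgs6 did not overlap either, as for 28.7% of all tested genes, so the shares restate those differences. Shares of 1 sum are also not independent, since a rise in 1 lowers the others. Rgs7bp, the palmitoylated anchor that holds R7 complexes at the membrane, lay at 28.7, 30.9 and 29.1 FPKM in morphine and at 35.5, 33.4 and 35.1 FPKM in saline. All its morphine values were below its saline values (log2 fold change -0.22, SE 0.06, adjusted p = 0.0920). Rescaled to TPM, Rgs7bp was at -0.35 (limma adjusted p = 0.0416), on a scale that moves the median of all genes from -0.02 to -0.13.

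**Figure D3:**
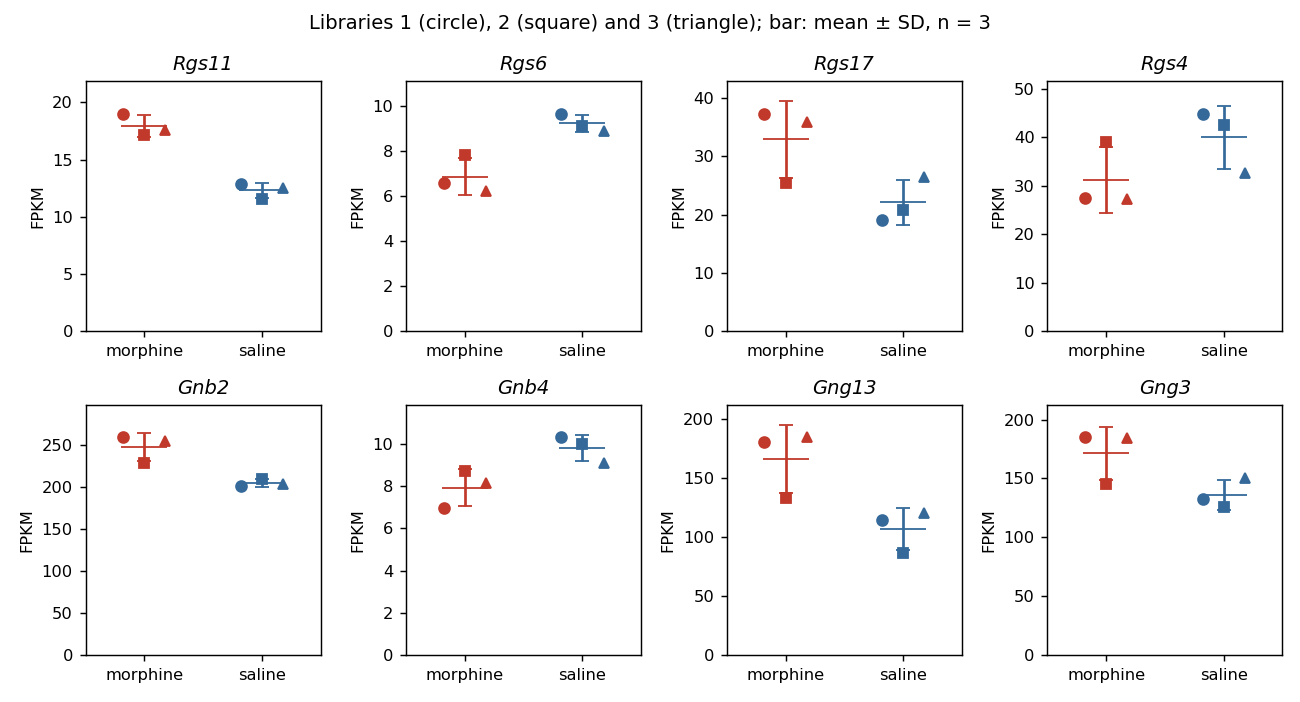
FPKM of 8 members in morphine (red, left) and saline (blue, right) libraries, with circles for library 1, squares for library 2 and triangles for library 3; bars give the mean ± SD, n = 3 each. Rgs11, Gnb2 and Gng13 lie higher and Rgs6 and Gnb4 lower in every morphine library, whereas Rgs17, Rgs4 and Gng3 overlap.

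The RZ subfamily holds small RGS proteins with a cysteine string, which act on Gz and Gi. Rgs17 (ENSMUSG00000019775; chromosome 10, 5825663 to 5922400, minus strand), known to bind mu opioid receptors in mouse brain, lay at 37.3, 25.4 and 35.96 FPKM in morphine and at 19.0, 20.9 and 26.5 FPKM in saline. Morphine 1 and 3 were well above all saline libraries, while morphine 2 lay inside the saline range. The mean was 1.49-fold higher in morphine (log2 fold change 0.55, SE 0.17, adjusted p = 0.128). Within each group the motor neuron markers were lowest where Rgs17 was highest in saline, and highest where it was lowest in morphine. The same held for the astrocyte, oligodendrocyte and endothelial marker sums, among others, whose part was not tested. With the motor neuron marker level as a covariate the log2 fold change was 0.42 (adjusted p = 0.0474), and without morphine 2 it was 0.72 (adjusted p = 0.0421). With each other library left out Rgs17 did not pass (limma adjusted p up to 0.325). Rgs19 lay at 16.8, 13.7 and 15.99 FPKM in morphine and at 12.0, 13.4 and 15.02 FPKM in saline (log2 fold change 0.19, adjusted p = 0.346), again with morphine 2 lowest of its group. Rgs20 averaged 5.97 FPKM in both groups.

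The R12 subfamily was represented by Rgs10 and Rgs12. Rgs10, a small RGS protein abundant in microglia and neurons, was the most abundant RGS gene of the cord, at 101, 80.7 and 111 FPKM in morphine and 75.7, 78.3 and 95.3 FPKM in saline. The ranges overlapped (log2 fold change 0.23, adjusted p = 0.368). The 6 microglial markers had a median log2 fold change of -0.06, with 0 called by limma. At an unadjusted p under 0.05 there was 1, Aif1, which was higher in morphine (log2 fold change 0.46). Rgs12, a large multidomain member, lay at 6.33, 5.56 and 6.93 FPKM in morphine and at 4.96, 5.26 and 5.81 FPKM in saline, with morphine 2 inside the saline range (log2 fold change 0.20, adjusted p = 0.302). Rgs14 reached at most 0.66 FPKM.

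In the R4 subfamily of short RGS proteins, 0 of 5 tested genes passed limma's test and 0 had an unadjusted p under 0.05. Rgs4, which acts on Gi/o and Gq and is abundant in neurons, lay at 27.4, 39.0 and 27.2 FPKM in morphine and at 44.8, 42.4 and 32.5 FPKM in saline. Its 3 highest values were those of saline 1, saline 2 and morphine 2, the same 3 libraries that held the most motor neuron marker RNA. These libraries also held the highest astrocyte, oligodendrocyte and endothelial marker sums, among others, whose part was not tested. The log2 fold change was -0.35 (SE 0.17, adjusted p = 0.275), and with the motor neuron marker level as a covariate it was -0.22 (adjusted p = 0.106). Rgs3 lay at 20.2, 19.4 and 19.3 FPKM in morphine and at 18.7, 18.7 and 18.9 FPKM in saline. Its groups did not overlap, but the difference was small (log2 fold change 0.06, SE 0.06, adjusted p = 0.553) and its sign turned with the values rescaled to TPM. Rgs2, which prefers Gq, and Rgs16 averaged 17.7 ± 1.22 and 4.59 ± 0.133 FPKM in morphine and 20.3 ± 2.64 and 4.47 ± 0.564 FPKM in saline (SD, n = 3 each). Rgs8, named here after its values were seen, lay at 6.74, 5.42 and 7.57 FPKM in morphine and at 7.20, 7.80 and 10.9 FPKM in saline (log2 fold change -0.34, adjusted p = 0.285); with the motor neuron covariate it was at -0.46 (adjusted p = 0.0356).

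On chromosome 1 lie 10 of the 20 RGS genes. Of these, 5 R4 genes form a run on the minus strand: Rgs2 (143999338 to 144004161), Rgs13 (144138654 to 144177372), Rgs1 (144242296 to 144249242), Rgs21 (144516648 to 144567667) and Rgs18 (144752683 to 144775435). Rgs2 was the one member of that run with more than 1 FPKM. Rgs1, an RGS gene of activated lymphocytes, was at 0.10 FPKM or less in morphine and at 0.13, 0.62 and 0.04 FPKM in saline, where saline 2 alone held about 91 fragments against 1 to 16 in the other 5 libraries. Rgs13 was listed at 0 in saline and at about 2, 1 and 1 fragments in morphine, Rgs18 gave 1 to 3 fragments a library, and Rgs21 was listed at 0 throughout. Elsewhere, Rgs22, a large testis-type RGS gene, lay at 0.37, 0.32 and 0.16 FPKM in morphine and at 0.16, 0.13 and 0.71 FPKM in saline. In all, 11 members were not tested, of which 3 were at 0 in every library and 8 lay at or below 0.80 FPKM.

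**Figure D4:**
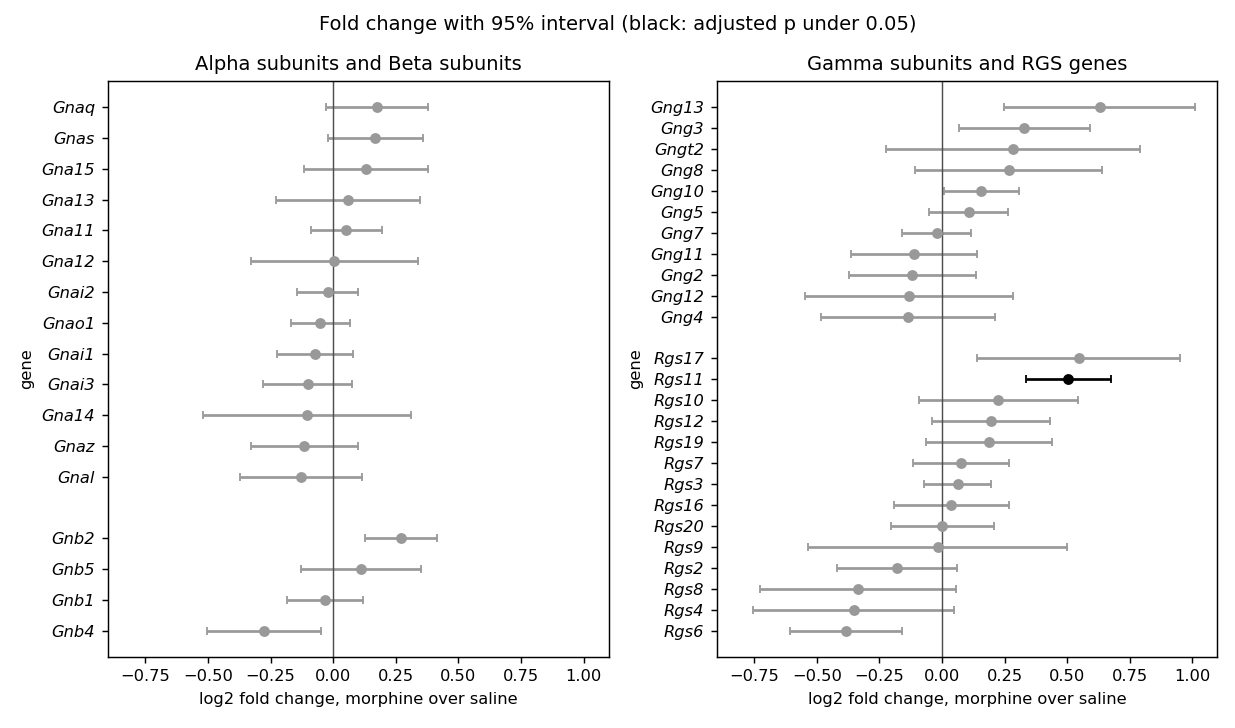
Log2 fold change, morphine over saline, on the log2(FPKM + 1) scale with its 95% limma interval for the 42 tested members. Rgs11 (black) is the 1 member with an adjusted p under 0.05, at 0.51 (0.33 to 0.68); most intervals include 0.

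The RGS genes above 1 FPKM ranked in saline as Rgs10, Rgs4, Rgs17, Rgs7, Rgs2, Rgs3, Rgs19, Rgs11, Rgs6, Rgs8, Rgs20, Rgs12, Rgs16 and Rgs9. The saline ranges of neighbours were separate at Rgs10 and Rgs4, Rgs4 and Rgs17, Rgs3 and Rgs19, Rgs11 and Rgs6, Rgs8 and Rgs20, and Rgs16 and Rgs9, and overlapped at the other steps. In morphine, Rgs17 at 32.9 ± 6.53 FPKM and Rgs4 at 31.2 ± 6.76 FPKM overlapped, whereas in saline they were apart, at 22.1 ± 3.90 and 39.9 ± 6.51 FPKM (SD, n = 3 each).

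The genes that work beside the subunits were taken as a list of 39 chaperones, guanine nucleotide exchange and dissociation factors, anchors, channels and enzymes, of which 30 were tested. None passed limma's test; 6 had an unadjusted p under 0.05 (1 higher, 5 lower), beside 22.3% of all tested genes, and the median log2 fold change was -0.06. Besides Rgs7bp, the smallest p values belonged to Snx13, Akap13 and Prkacb. Snx13 is a sorting nexin with an RGS domain. It lay at 8.65, 10.4 and 10.2 FPKM in morphine and at 12.4, 12.7 and 12.8 FPKM in saline (log2 fold change -0.34, limma adjusted p = 0.0771). Rescaled to TPM its adjusted p was 0.0427, on a scale that moves the median of all genes from -0.02 to -0.13. Akap13, an anchor protein of the cyclic AMP dependent kinase, averaged 1.98 ± 0.428 FPKM in morphine and 2.88 ± 0.504 FPKM in saline (SD, n = 3 each, limma adjusted p = 0.183). By library it lay at 2.47, 1.70 and 1.76 FPKM in morphine and at 3.44, 2.72 and 2.47 FPKM in saline. Prkacb, a catalytic subunit of the cyclic AMP dependent kinase, averaged 107 ± 7.36 FPKM in morphine and 122 ± 6.86 FPKM in saline (SD, n = 3 each, limma adjusted p = 0.184). By library it lay at 99.7, 108 and 114 FPKM in morphine and at 116, 121 and 130 FPKM in saline. The beta-gamma gated potassium channel genes Kcnj3 and Kcnj9 averaged 17.1 and 8.22 FPKM in morphine and 18.3 and 9.60 FPKM in saline. The exchange factor and chaperone Ric8a averaged 23.9 FPKM in morphine and 23.1 FPKM in saline.

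The members' fold changes went with transcript length much as those of all genes did. Spearman's rank correlation between exonic length and log2 fold change was -0.33 across the 42 members and -0.31 across 14588 tested genes with an annotated length; genes share these libraries and are not independent, so no p is given. Removing that trend left Rgs11 at 0.53 (adjusted p = 0.0520), Gnb2 at 0.27 (adjusted p = 0.0797) and Rgs17 at 0.62 (adjusted p = 0.113).

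**Figure D5:**
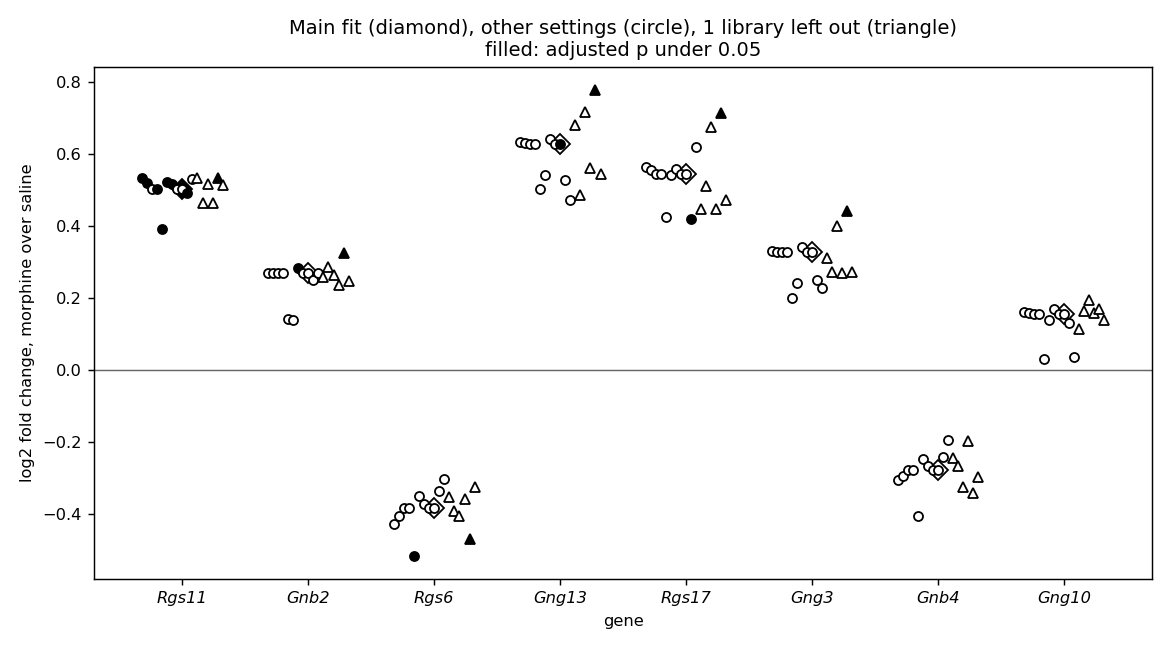
Log2 fold change, morphine over saline, of the 8 members with an unadjusted p under 0.05 in the main fit (diamond), under other settings (circle) and with 1 library left out (triangle); filled marks passed an adjusted p of 0.05. Rgs11 stays between 0.39 and 0.54 and passes in 8 of 17 settings, and no gene of the 8 changes sign.

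To show an annotated start of genes on either side of the comparison, the promoter windows of Rgs17 and Gnb2, whose means were higher in morphine, and of Rgs6, whose mean was lower, are printed from RefSeq on GRCm38.p6 (the mm10 assembly). Each is 300 bases around the RefSeq start and runs 5′ to 3′ on the gene's strand, with CG dinucleotides, the sites of DNA methylation and the mark of CpG islands, in capitals. The windows are chr10:5922351-5922650 (minus strand), chr5:137533257-137533556 (minus strand) and chr12:82617249-82617548 (plus strand). Each is 1 of several starts of its gene: the last 30 bases were found in 2 of the 4 annotated transcripts of Rgs17, 3 of 15 of Gnb2 and 2 of 22 of Rgs6, whose window lies inside the gene.
Rgs17: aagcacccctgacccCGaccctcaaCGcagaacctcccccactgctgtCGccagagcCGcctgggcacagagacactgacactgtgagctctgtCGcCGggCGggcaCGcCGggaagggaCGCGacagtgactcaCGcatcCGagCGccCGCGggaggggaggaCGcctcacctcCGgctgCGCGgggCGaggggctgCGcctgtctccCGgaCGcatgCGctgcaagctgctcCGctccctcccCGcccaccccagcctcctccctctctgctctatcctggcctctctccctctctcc
Gnb2: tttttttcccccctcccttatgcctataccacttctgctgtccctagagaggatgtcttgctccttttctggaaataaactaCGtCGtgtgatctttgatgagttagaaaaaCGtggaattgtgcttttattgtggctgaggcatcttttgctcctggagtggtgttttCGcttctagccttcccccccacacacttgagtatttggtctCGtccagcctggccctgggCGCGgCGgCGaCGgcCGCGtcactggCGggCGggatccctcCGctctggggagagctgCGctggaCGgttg
Rgs6: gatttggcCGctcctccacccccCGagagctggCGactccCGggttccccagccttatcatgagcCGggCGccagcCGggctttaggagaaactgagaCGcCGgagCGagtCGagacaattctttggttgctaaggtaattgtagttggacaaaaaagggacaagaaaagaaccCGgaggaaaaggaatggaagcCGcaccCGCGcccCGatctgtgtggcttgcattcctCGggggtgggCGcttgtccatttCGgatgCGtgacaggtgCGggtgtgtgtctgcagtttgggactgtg

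These windows held 27, 17 and 21 CG dinucleotides, beside a median of 20.5 over 52 windows of 39 members and of 7 over the 32851 windows of the RefSeq table. The GC box, GGGCGG on either strand, was found in 51.9% of the members' windows and 35.7% of all windows. The cyclic AMP response element TGACGTCA was found in 0 of the 52 windows and in 1.79% of all, and its core TGACG, on either strand and counted also within the full element, in 13 of the 52 windows and 20.8% of all. Some members have several windows, which may overlap, and a match in letters does not show a bound factor.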

How the data were processed

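Total RNA from L4 to L5 spinal cord was extracted with PureLink and Trizol and sequenced with the KAPA stranded kit, per the labels' protocols. The submitters' processing notes name RSEM, STAR, Trimmomatic, bcl2fastq 2.19.0 and the build mm10, with annotation release, strand use and other versions not given in the sources used here. FPKM, computed by the authors, fill the deposited table, in 6 columns named as in the sample descriptions.

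The 14614 genes at 1 FPKM or more in 3 or more libraries were tested as log2(FPKM + 1) with limma 3.58.1 (R 4.3.3, intensity trend, two-sided, Benjamini-Hochberg over all tested genes, threshold 0.05), and the fit was tested on simulated data. Alternatives changed pseudocount, filter, scaling, trend, covariates or libraries. Members below that level were read from the same table. Coordinates, exonic lengths and overlaps came from GENCODE M21 on mm10, which held all 53 members. Depth was estimated as the value at which low FPKM of single-transcript genes fell closest to whole fragments (77.6% to 80.4% within 0.05 of a whole number, or within the table's rounding, against 12.7% to 17.0% if spread evenly). Fragments of a member use its longest transcript, and cover counting error only. Figures were drawn with matplotlib 3.10.9, and tables made with pandas 2.3.3, NumPy 2.4.6 and SciPy 1.17.1 under Python 3.11.15.

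Values in every library are given for members past the threshold or with an unadjusted p under 0.05, the 2 most abundant of each class, the highest and lowest fold change of each kind, and the 4 partner genes with the smallest p. Gng12, Rgs1, Rgs8, Rgs9, Kcnj3, Kcnj9, Gpr158 and Ric8a were named after their values were seen; overlapping genes come from the annotation. The members and lists were chosen with earlier results of these data known.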

Additional observations from a re-analysis of the deposited data

How the results depend on the processing

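The 28 genes named by rule and Rgs8, Kcnj9 and Gpr158 were refitted under 17 other settings; Akap13 has 16, since the filter at 5 FPKM removes it. The count of calls over all tested genes, 220, was 8 with no filter, 338 with the filter at 5 FPKM, 851 rescaled to TPM, 102 after quantile normalization, 540 after median centring, 36 with no trend, 959 with the motor neuron covariate and 33 with the length trend removed, and 1 to 805 with 1 library left out. The count of members, 1, was 0 with no filter, 0 with no trend, 0 with the length trend removed, 2 rescaled to TPM (Rgs11, Rgs6), 2 after median centring (Rgs11, Gnb2), 3 with the motor neuron covariate (Rgs11, Rgs17, Rgs8), and 0 to 6 with 1 library left out, the 6 without morphine 2 (Rgs11, Rgs17, Rgs6, Gng13, Gng3, Gnb2). The count of partner genes, 0, was 2 rescaled to TPM (Snx13, Rgs7bp) and 2 with the motor neuron covariate (Kcnj9, Gpr158). The 805 calls over all tested genes were those without morphine 2. Leaving out a library leaves 5 libraries. The cause of the other changes was not tested.

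Morphine and saline libraries share numbers in their titles. Deviations of same-numbered libraries from their group means correlated at -0.13, 0.16 and 0.29 across genes, so the numbers were not taken to pair the libraries, and morphine 1 and morphine 2 each correlated best with a library of another number. With the replicate block 24 genes passed over all and 1 member, Gng13 (adjusted p = 0.0356) in place of Rgs11 (0.0521).

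Log2 fold changes changed sign rescaled to TPM for Gna11 (-0.073), Gna12 (-0.12), Gna13 (-0.063), Rgs3 (-0.060) and Rgs7 (-0.048), after quantile normalization for Gna12 (-0.045) and Gnas (-0.023), and with the length trend removed for Gnao1 (0.032). With 1 library left out, they ran from -0.13 to 0.11 for Gna12 (below 0 without saline 1, saline 3 or morphine 2), from -0.067 to 0.15 for Gna13 (below 0 without morphine 2), from -0.073 to 0.012 for Gnb1 (above 0 without saline 3 or morphine 2) and from -0.23 to 0.026 for Gng4 (above 0 without saline 3). None of these genes passed in any setting. The log2 ratios of summed FPKM, rescaled to TPM, were -0.0075 for alpha, -0.0095 for beta and -0.024 for RGS genes, each with its sign turned, and 0.10 for gamma. The depth, 17.9 to 26.1 M fragments, limits the members under 1 FPKM, several of which rest on under 10 fragments a library.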
